A study of Macaca fascicularis with 2 samples.

Results

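The genes described here are 9 genes of proximal T cell receptor signalling and costimulation, *LCK*, *FYN*, *ZAP70*, *LAT*, *LCP2*, *CD5*, *CD6*, *CD28* and *CLNK*, chosen by symbol from the 29324 genes of the deposited list. All 9 were found, each under 1 Ensembl identifier, and all 9 carried UMIs (unique molecular identifiers, read as 1 RNA molecule caught per identifier). The cells were isolated as circulating CD4+CD8+ double-positive T cells of 1 untreated cynomolgus monkey (*Macaca fascicularis*), aged 10 years. Fresh peripheral blood mononuclear cells were passed over CD4 magnetic beads and the bound cells then over CD8 beads, so the cells of every tag gate had passed 2 kinds of bead. A gene expression library and a cell surface tag library, which counts CD4 and CD8α antibody-derived tags, were made from the same droplets. There was 1 animal and 1 preparation, so no difference has a replicate or a test across animals, and every interval covers counting error only.

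When the T cell receptor binds its ligand, the Src family kinases LCK and FYN phosphorylate the CD3 and ζ chains, and LCK is carried to the complex by the CD4 and CD8 coreceptors. ZAP70 docks on the phosphorylated chains and phosphorylates the membrane scaffold LAT and the adaptor SLP-76, the product of *LCP2*, on which the downstream signal is assembled. CD28 is the main costimulatory receptor of naive T cells and binds CD80 and CD86, whereas CD5 and CD6 are related scavenger receptor proteins that tune the strength of the signal. CLNK is an adaptor of the SLP-76 family that is better known from mast cells and natural killer (NK) cells.

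After filtering, 8830 of 8953 barcodes were kept, with a median of 3145 UMIs and 1127 genes per cell, and all 8830 carried UMIs of both tags. Of these, 8615 were gated as T cells with 30301346 gene UMIs in all, and 113 cells with B cell genes and almost no CD3 or TRAC UMIs (B control) served as background. A further 83 cells with both B cell and CD3 UMIs and 19 monocyte-gated cells were set aside. The cells gated as T cells were all those that remained, and no T cell gene was asked of them. T cells were divided by tags at 144 CD4 and 419 CD8 tag UMIs into CD4hi CD8lo (5677 cells), CD4hi CD8hi (2491), CD4lo CD8hi (406) and CD4lo CD8lo (41). Within 10% of those thresholds lay 62 cells for CD4 and 695 for CD8. Median tag UMIs of the B control were 135 for CD4 and 199 for CD8, so UMIs of both tags do not show double positivity. The CD4lo CD8hi gate had a median of 101 CD4 tag UMIs, and the CD4hi CD8lo gate had 226 CD8 tag UMIs. T cells were also divided by gene UMIs into naive (5217 cells), FOXP3-positive (369), GZMK-dominant (235), GZMB≥3 (1336), FCER1G-positive (49) and other T cells (1409), and none of the 9 genes took part in these gates. Gates were taken in order, and 47 of the 49 FCER1G-positive and 23 of the 235 GZMK-dominant cells also had at least 3 GZMB UMIs. Median depth was 2905 UMIs in naive cells and between 3361 and 3836 in the 4 named groups compared with them. Levels are CPM (counts per 1000000 gene UMIs summed over a group) with an exact Poisson 95% interval.

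**Figure D1:**
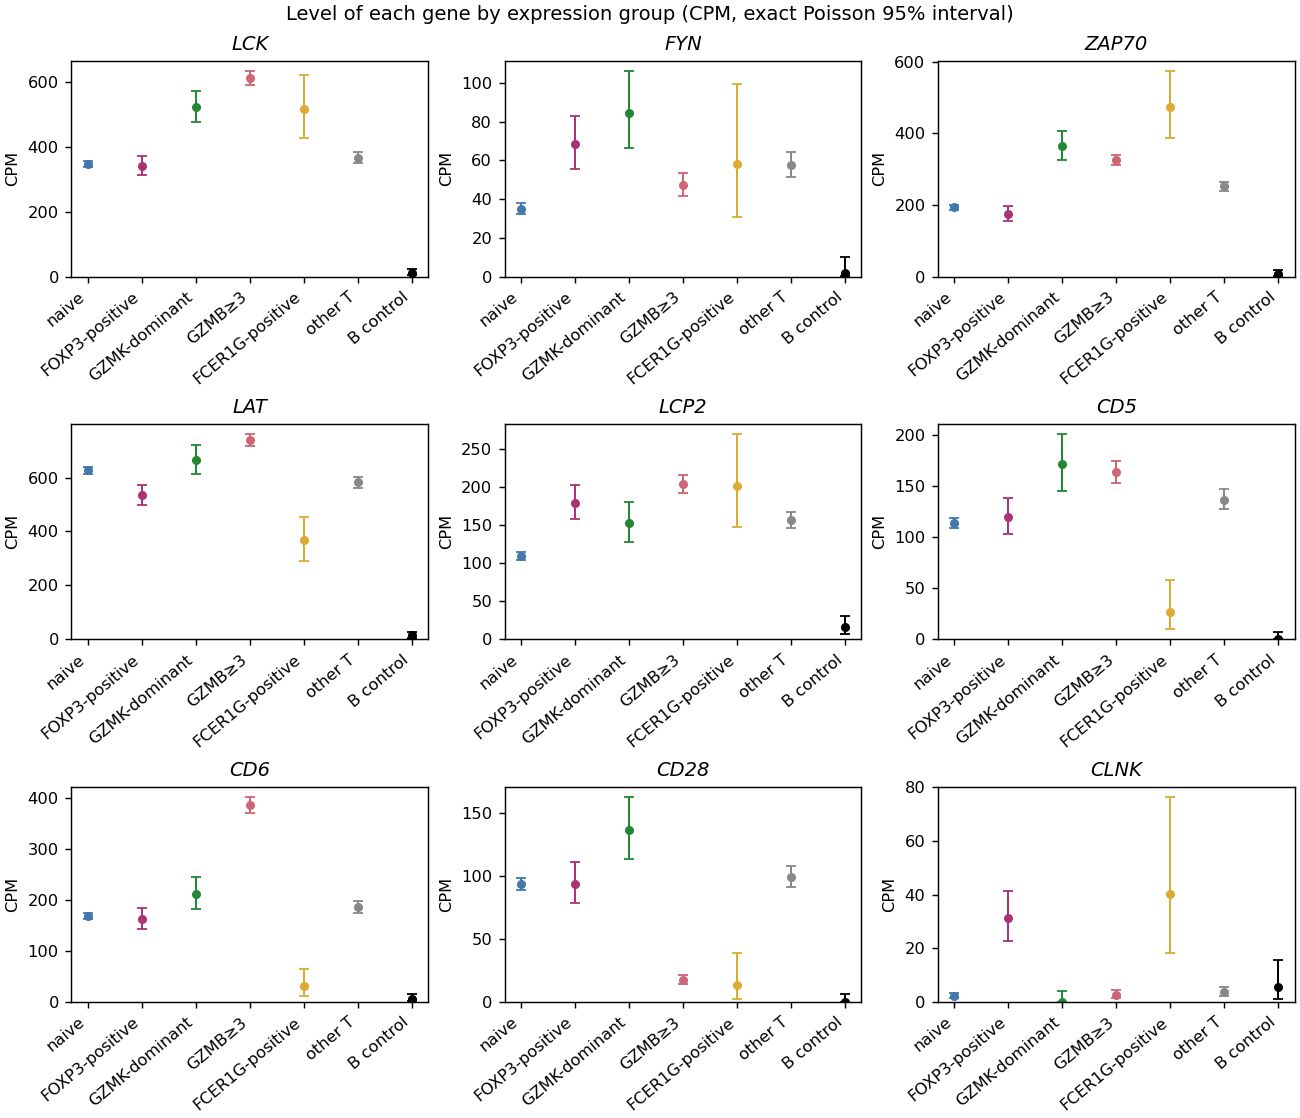
CPM of each of the 9 genes (vertical axes, linear from 0, a scale of its own per gene) in 6 groups of T cells and in the B control, with bars for the exact Poisson 95% interval. *CD28* stands at 17.3 CPM in GZMB≥3 cells against 93.9 CPM in naive cells, *CD6* at 386 against 168 CPM, and *CLNK* at 31.1 CPM in FOXP3-positive cells against 2.33 CPM in naive cells.

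Double positivity was not shown at the RNA level in the CD4lo CD8hi gate. There *CD4* had 2 UMIs in 406 cells (1.29 CPM) against 107 CPM in CD4hi CD8lo cells, and *CD8A* stood at 842 CPM against 46.2 CPM. The T cell part of the label held for most groups. The 4 T cell markers (*CD3D*, *CD3E*, *CD3G* and *TRAC*) summed to 2932 to 4101 CPM in 5 of the 6 groups and to 19.8 CPM in the B control. The FCER1G-positive group was the exception with 1029 CPM, and only 25 of its 49 cells had at least 2 UMIs of these markers, while 15 had none. Its NK or innate markers summed to 4374 CPM, with *TYROBP* in 48 cells, *KLRF1* in 38, *NCR1* in 21 and *NCAM1* in 0. Some results for this group are therefore also given for the 25 cells with at least 2 CD3 or TRAC UMIs, a division made after the values had been seen.

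*LCK*, the kinase that starts the receptor signal, was detected in 6067 of 8615 T cells. Its level was 349 CPM (340 to 358) in naive cells, 341 CPM (312 to 373) in FOXP3-positive cells, 523 CPM (477 to 573) in GZMK-dominant cells, 613 CPM (593 to 634) in GZMB≥3 cells and 519 CPM (429 to 622) in FCER1G-positive cells. Naive and FOXP3-positive cells did not differ beyond counting error, and the 3 groups with cytotoxic genes lay above both. In the B control *LCK* stood at 10.8 CPM, and the 9 genes there lay between 0 and 16.2 CPM. Against naive cells the log2 ratio was 0.81 (0.75 to 0.88) in GZMB≥3 cells, past the 1.5-fold limit used here as a call. The log2 ratio of GZMK-dominant cells, 0.58, met this limit and fell below it under 5 of the alternatives tried, among them 0.46 with ribosomal protein and mitochondrial genes left out of the total.

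*FYN*, the second Src family kinase, had another order. Naive cells were lowest with 35.0 CPM (32.2 to 38.0), followed by GZMB≥3 cells with 47.3 CPM (41.8 to 53.3), FOXP3-positive cells with 68.3 CPM (55.6 to 83.0) and GZMK-dominant cells with 84.6 CPM (66.5 to 106). The interval of the FCER1G-positive cells, 31.0 to 99.4 CPM from 13 UMIs, took in all the others except the upper end of the last. The log2 ratio to naive cells was 1.27 (0.91 to 1.62) in GZMK-dominant and 0.96 (0.64 to 1.27) in FOXP3-positive cells, and 0.43 (0.22 to 0.64) in GZMB≥3 cells, where it was 0.67, past the limit, in thinned cells. The balance of both kinases, taken as UMIs of *LCK* per UMI of *FYN*, was therefore not the same across groups. It was 9.96 (9.14 to 10.9) in naive cells, 5.0 (4.03 to 6.25) in FOXP3-positive cells, 6.19 (4.84 to 8.01) in GZMK-dominant cells and 13.0 (11.5 to 14.7) in GZMB≥3 cells. Ratios of UMIs of different genes depend on transcript length and capture, so they are read only across groups.

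*ZAP70*, the kinase that binds the phosphorylated receptor chains, stood at 194 CPM (187 to 200) in naive and 175 CPM (154 to 198) in FOXP3-positive cells. It was higher in GZMB≥3 cells with 326 CPM (311 to 341), GZMK-dominant cells with 365 CPM (327 to 407) and FCER1G-positive cells with 474 CPM (388 to 573). The 3 latter groups did not overlap with naive cells. Log2 ratios to naive cells were 0.75 (0.67 to 0.83), 0.92 (0.75 to 1.08) and 1.29 (1.0 to 1.57) in that order. The first of these became 0.55, under the limit, with ribosomal protein and mitochondrial genes left out of the total. *SYK*, the other kinase of the ZAP70 family, had 11 UMIs in the 5217 naive cells, 1 in the 1336 GZMB≥3 cells and 0 in FOXP3-positive and GZMK-dominant cells, but 26 UMIs in 18 of the 49 FCER1G-positive cells. UMIs of *ZAP70* per UMI of *SYK* were thus 287 (160 to 576) in naive and 4.08 (2.63 to 6.53) in all 49 FCER1G-positive cells.

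*LAT*, the membrane scaffold, stood at 626 CPM (614 to 638) in naive, 535 CPM (498 to 573) in FOXP3-positive, 664 CPM (612 to 720) in GZMK-dominant and 739 CPM (717 to 761) in GZMB≥3 cells, and none of these differed from naive cells by 1.5-fold. FCER1G-positive cells were the lowest with 367 CPM (292 to 455). *LCP2*, which encodes SLP-76, was lowest in naive cells with 109 CPM (104 to 114) and higher in each other group, at 152 CPM (128 to 180) in GZMK-dominant, 179 CPM (158 to 202) in FOXP3-positive, 203 CPM (192 to 215) in GZMB≥3 and 201 CPM (147 to 269) in FCER1G-positive cells. The log2 ratio to naive cells was 0.90 (0.79 to 1.0) in GZMB≥3 and 0.71 (0.52 to 0.90) in FOXP3-positive cells. UMIs of *LCP2* per UMI of *LAT* were 0.174 (0.166 to 0.183) in naive cells, 0.275 (0.258 to 0.294) in GZMB≥3 cells, 0.335 (0.290 to 0.386) in FOXP3-positive cells and 0.549 (0.373 to 0.799) in all 49 FCER1G-positive cells.

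*CLNK*, the adaptor related to SLP-76, was rare, with 129 UMIs in 111 of the 8615 T cells, and it was concentrated in FOXP3-positive cells. These held 46 UMIs in 37 of 369 cells, or 31.1 CPM (22.8 to 41.5), against 38 UMIs in 37 of 5217 naive cells, or 2.33 CPM (1.65 to 3.19). The log2 ratio was 3.74 (3.09 to 4.40), and with at least 2 FOXP3 UMIs asked of a cell it was 3.69. Over all alternatives it ran from 3.51 to 4.34. A *CLNK* UMI was seen in 10.0% of FOXP3-positive and 0.709% of naive cells. After thinning every cell to 2200 UMIs, 6.48% of FOXP3-positive cells and 0.403% of naive cells had a *CLNK* UMI, with 0.901% in the B control. GZMK-dominant cells had no *CLNK* UMI, which allows up to 4.16 CPM and so does not set them below naive cells. GZMB≥3 cells had 15 UMIs (2.65 CPM), and their level and that of naive cells lay within the interval of the B control, 1.12 to 15.8 CPM from 3 UMIs. In the FCER1G-positive group 8 of 49 cells carried 9 UMIs, or 40.3 CPM (18.4 to 76.4), and 4 of these UMIs lay in cells with under 2 CD3 or TRAC UMIs.

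FOXP3-positive cells were themselves not uniform for *CLNK*. Of the 46 UMIs, 45 lay in 36 of the 287 cells with at least 3 UMIs over the genes of the naive gate, which include *CCR7*, *LEF1* and *TCF7* (38.2 CPM), and 1 lay in the 82 cells with fewer (3.31 CPM), a division made after the values had been seen. Median depth was 3642 UMIs in the former and 3358.5 in the latter cells.

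*CD28*, the costimulatory receptor, separated GZMB≥3 cells from all other T cell groups but the FCER1G-positive one. It stood at 93.9 CPM (89.2 to 98.7) in naive, 94.0 CPM (79.0 to 111) in FOXP3-positive and 99.6 CPM (91.6 to 108) in other T cells, which did not differ beyond counting error. GZMK-dominant cells were above these with 136 CPM (113 to 163). Their log2 ratio to naive cells, 0.54 (0.26 to 0.81), was under the limit of 1.5-fold and ran from 0.41 to 0.84 over the alternatives. GZMB≥3 cells had 98 UMIs in 1336 cells, or 17.3 CPM (14.0 to 21.1), and FCER1G-positive cells 3 UMIs, or 13.4 CPM (2.77 to 39.2). The log2 ratio of GZMB≥3 to naive cells was -2.44 (-2.75 to -2.15), and -3.15 without the cells with the highest doublet scores. A *CD28* UMI was seen in 5.91% of GZMB≥3 cells and 24.6% of naive cells. After thinning these shares were 2.32% and 17.8%, and 0 of 111 B control cells had one, which allows up to 3.27%.

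Cells outside the naive, FOXP3-positive, GZMK-dominant and FCER1G-positive groups were placed in steps of their GZMB UMIs. *CD28* stood at 99.9 CPM (91.6 to 109) in 1322 cells without GZMB and at 95.1 CPM (64.1 to 136) in 87 cells with 1 or 2 UMIs. It was 30.2 CPM (13.0 to 59.5) in 72 cells with 3 to 5 UMIs, 22.8 CPM in 214 cells with 6 to 10, 18.5 CPM in 578 cells with 11 to 20 and 12.6 CPM (8.47 to 18.2) in 472 cells with more. The levels on both sides of the limit of 3 GZMB UMIs thus did not overlap, and above it the intervals of neighbouring steps did. The rank of the steps follows GZMB UMIs per cell, which also grow with the depth of a cell, and median depth ran from 3305 to 3964.5 UMIs over the 6 steps.

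**Figure D2:**
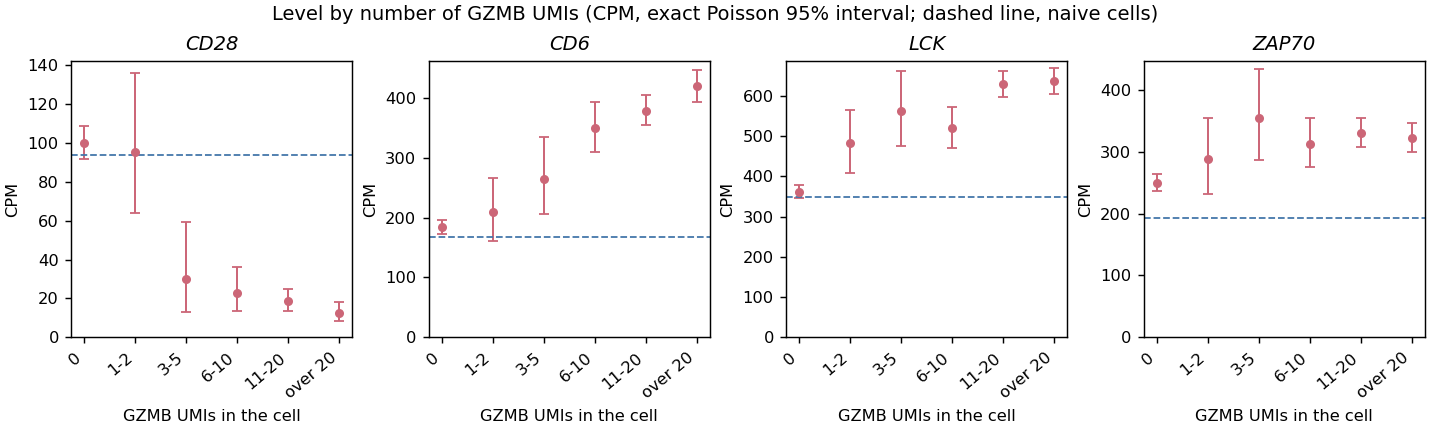
CPM (vertical axes, linear from 0) of *CD28*, *CD6*, *LCK* and *ZAP70* against the number of GZMB UMIs in a cell (horizontal axes, 6 steps), with exact Poisson 95% intervals and the naive level as a dashed line. *CD28* goes from 95.1 to 30.2 CPM between 1 to 2 and 3 to 5 UMIs, and *CD6* stands at 185 CPM in the first and 420 CPM in the last step.

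*CD6*, a scavenger receptor family protein that binds CD166, was the member with the largest positive ratio in GZMB≥3 cells. It stood at 168 CPM (162 to 175) in naive, 162 CPM (142 to 184) in FOXP3-positive, 212 CPM (183 to 245) in GZMK-dominant and 386 CPM (370 to 403) in GZMB≥3 cells, with a log2 ratio of 1.20 (1.12 to 1.28) between the last and the first. Over the steps of GZMB it was 185 CPM (173 to 197) without GZMB, 209, 264, 349 and 379 CPM in the next steps and 420 CPM (394 to 447) above 20 UMIs. The order was therefore the reverse of that of *CD28*, and UMIs of *CD6* per UMI of *CD28* were 1.79 (1.68 to 1.91) in naive and 22.3 (18.2 to 27.6) in GZMB≥3 cells.

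*CD5*, which dampens receptor signalling in thymocytes and T cells, varied less among the groups with CD3. Its levels were 114 CPM (108 to 119) in naive, 120 CPM (103 to 139) in FOXP3-positive, 171 CPM (145 to 201) in GZMK-dominant and 164 CPM (153 to 175) in GZMB≥3 cells. The log2 ratio of GZMK-dominant to naive cells, 0.59 (0.35 to 0.83), lay at the limit of 1.5-fold and fell to 0.47 with the other total. UMIs of *CD5* per UMI of *CD6* were 0.674 (0.636 to 0.716) in naive and 0.424 (0.393 to 0.458) in GZMB≥3 cells. *CD5* and *CD6* were both low in FCER1G-positive cells, with 6 UMIs (26.8 CPM, 9.85 to 58.4) and 7 UMIs (31.3 CPM, 12.6 to 64.5).

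The FCER1G-positive group thus had a high *ZAP70* level beside low levels of the 3 surface receptors, and its log2 ratio of *LCK* to naive cells, 0.57 (0.30 to 0.84), was under the limit. The cells with at least 2 CD3 or TRAC UMIs and those with fewer were both above naive cells in *ZAP70*. In the 25 former cells *LCK* stood at 447 CPM (340 to 578) and *ZAP70* at 432 CPM (326 to 561), and in the 24 latter cells they stood at 617 CPM (469 to 798) and 532 CPM (395 to 701). All UMIs of *CD5*, *CD6* and *CD28* lay in the former cells, and the latter had none, which allows up to 39.3 CPM for each. In the 25 cells the log2 ratios to naive cells were -1.29 for *CD5*, -1.64 for *CD6* and -2.02 for *CD28*, each on 3 to 7 UMIs, 1.16 for *ZAP70* and 0.36 for *LCK*. For *LAT* and *LCP2* they were -0.64 and 1.08. *CD247*, which encodes the ζ chain, was 886 CPM (767 to 1018) in this group against 523 CPM (512 to 534) in naive cells, whereas *CD3E* was 326 CPM (256 to 411) against 1507 CPM (1488 to 1525). UMIs of *CD247* per UMI of *CD3E* were 2.71 (2.06 to 3.60) and 0.347 (0.339 to 0.356). The former ratio covers all 49 cells, of which 24 had under 2 CD3 or TRAC UMIs.

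**Figure D3:**
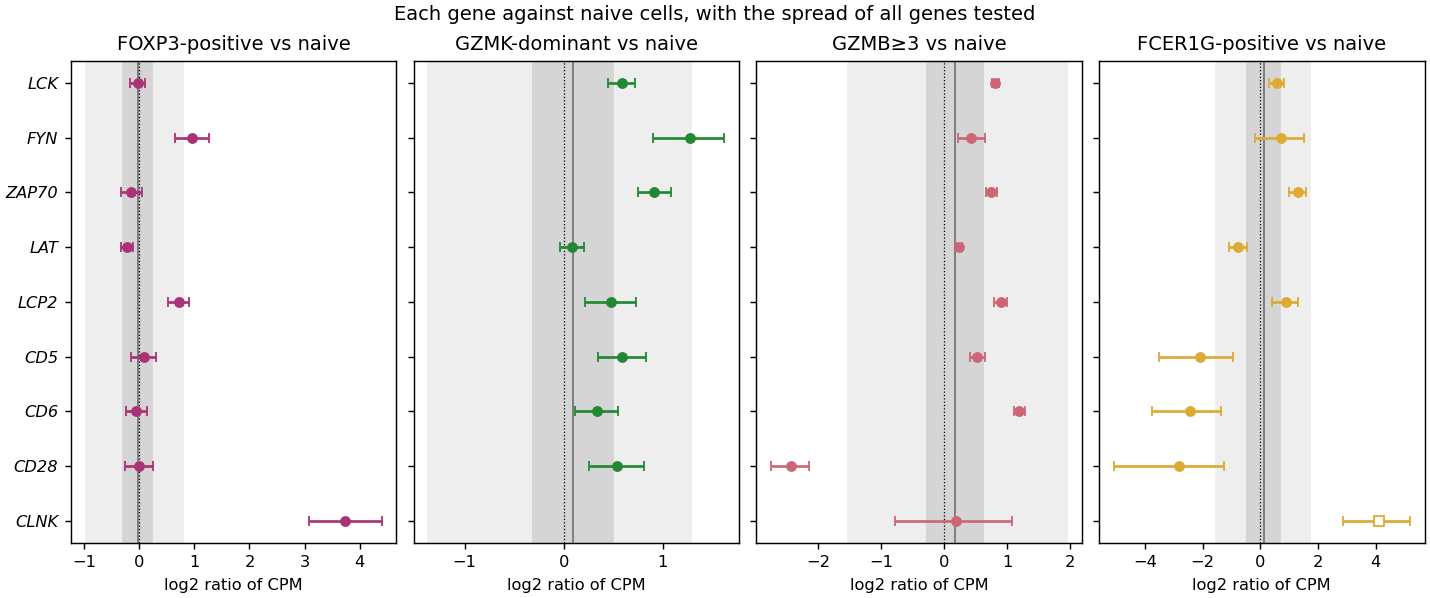
Log2 ratio of CPM of each gene in 4 groups against naive cells (points, with exact 95% intervals from the split of the UMIs), beside the spread of all genes tested (dark grey, middle 50%, light grey, 5th to 95th percentile, grey line, median). An open square marks a gene with under 50 UMIs over both groups. *CD28* in GZMB≥3 cells (-2.44) and *CLNK* in FOXP3-positive cells (3.74) lie outside the light band, and the 4 genes called higher in GZMB≥3 cells lie inside it.

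The counts of members past 1.5-fold were read against all genes whose UMIs over both groups came to 50 or more, the genes tested. In FOXP3-positive against naive cells 3 of 9 members (*CLNK*, *FYN* and *LCP2*) were higher and 0 lower, where 8.76% of all genes were higher and 12.4% lower. In GZMK-dominant cells 4 of 8 (*FYN*, *ZAP70*, *CD5* and *LCK*) were higher and 0 lower, where 20.3% of all genes were higher and 15.3% lower. In GZMB≥3 cells 4 of 9 (*CD6*, *LCP2*, *LCK* and *ZAP70*) were higher and 1 (*CD28*) lower, where 26.3% of all genes were higher and 14.6% lower. In FCER1G-positive cells 3 of 8 (*ZAP70*, *LCP2* and *FYN*) were higher and 4 (*LAT*, *CD5*, *CD6* and *CD28*) lower, where 26.5% of all genes were higher and 19.1% lower. The interval of *FYN* in this last comparison, -0.19 to 1.52, held 0, and its log2 ratio was 0.40 in the 25 cells with at least 2 CD3 or TRAC UMIs. These 4 comparisons share the naive cells. Of 8 members tested in FCER1G-positive against GZMB≥3 cells, 0 were higher and 3 lower (*CD6*, with a log2 ratio of -3.62, *CD5*, -2.61, and *LAT*, -1.01), where 10.9% of all genes were higher and 23.3% lower. In the 25 cells with at least 2 CD3 or TRAC UMIs these ratios were -2.84 (from 7 UMIs), -1.82 (from 6 UMIs) and -0.88.

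The total used for CPM bears on the members near the limit. Ribosomal protein and mitochondrial genes took 30.3% of the UMIs of naive cells, 28.8% of FOXP3-positive, 23.8% of GZMK-dominant, 19.9% of GZMB≥3 and 21.5% of FCER1G-positive cells. Leaving them out moved every log2 ratio to naive cells by -0.20 in GZMB≥3, -0.17 in FCER1G-positive and -0.13 in GZMK-dominant cells. The share of genes called higher among all genes called went from 64.3% to 47.9%, from 58.2% to 45.7% and from 57.1% to 44.4% in the same order. The members called under both totals were *CD6*, *LCP2*, *LCK* and *CD28* in GZMB≥3 cells, *FYN* and *ZAP70* in GZMK-dominant cells, and *ZAP70*, *LCP2*, *LAT*, *CD5*, *CD6* and *CD28* in FCER1G-positive cells.

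The tag gates were compared next. From CD4hi CD8lo over CD4hi CD8hi to CD4lo CD8hi cells, *CD28* stood at 92.1 CPM (87.7 to 96.7), 71.4 CPM (66.5 to 76.6) and 27.7 CPM (20.1 to 37.3), and no pair of these overlapped. *ZAP70* had the opposite order with 212 CPM (205 to 219), 260 CPM (250 to 269) and 343 CPM (315 to 374). *FYN* was 37.3 CPM (34.5 to 40.2), 54.4 CPM (50.1 to 59.0) and 63.2 CPM (51.3 to 77.0), where the latter gates overlapped. *LAT* was lower in CD4lo CD8hi cells, with 515 CPM (480 to 552) against 647 CPM (635 to 659) in CD4hi CD8lo cells, and so was *CD5*, with 97.3 CPM (82.4 to 114) against 128 CPM (123 to 133).

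In CD4lo CD8hi against CD4hi CD8lo cells 2 of 9 members were higher, *FYN* with a log2 ratio of 0.76 (0.44 to 1.07) and *ZAP70* with 0.70 (0.56 to 0.83), and 1 lower, *CD28* with -1.73 (-2.20 to -1.30), where 13.5% of all genes were higher and 14.1% lower. In CD4hi CD8hi against CD4hi CD8lo cells 0 were higher and 0 lower of 9, where 10.5% of all genes were higher and 4.16% lower. Both comparisons share the CD4hi CD8lo cells. With thresholds from mixture models, 359 CD4 and 506 CD8 tag UMIs, *FYN* and *ZAP70* fell below the limit in the former comparison (0.41 and 0.57), as did *FYN* with thresholds of 100 and 300 (0.58). The CD4lo CD8lo gate held 92667 gene UMIs in 41 cells, and its *CD28* level, 43.2 CPM (11.8 to 111), overlapped with those of the other 3 gates.

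The gates differed in their makeup. GZMB≥3 cells made up 6.55% of CD4hi CD8lo, 30.1% of CD4hi CD8hi and 50.2% of CD4lo CD8hi cells, naive cells 73.6%, 36.7% and 27.3%, and FCER1G-positive cells 0.0176%, 0.642% and 7.88%. The level that each gate would have if every expression group in it stood at its own overall level was computed from the share of each group in the UMIs of the gate. The overall levels include the cells of the gate itself, which draws the computed level towards the observed one, and no interval was computed. For *CD28* it was 89.5, 71.7 and 52.6 CPM in the 3 gates, so that the CD4hi CD8hi gate lay at its computed level and the CD4lo CD8hi gate, at 27.7 CPM, lay at 0.526 of it. In CD4lo CD8hi cells *CD5* lay at 0.724 and *LAT* at 0.790 of the computed level, *ZAP70* at 1.18 and *FYN* at 1.34, and the other 4 genes between 0.886 and 0.959. In the CD4hi CD8hi gate all 9 genes lay between 0.882 and 1.11 of it.

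**Figure D4:**
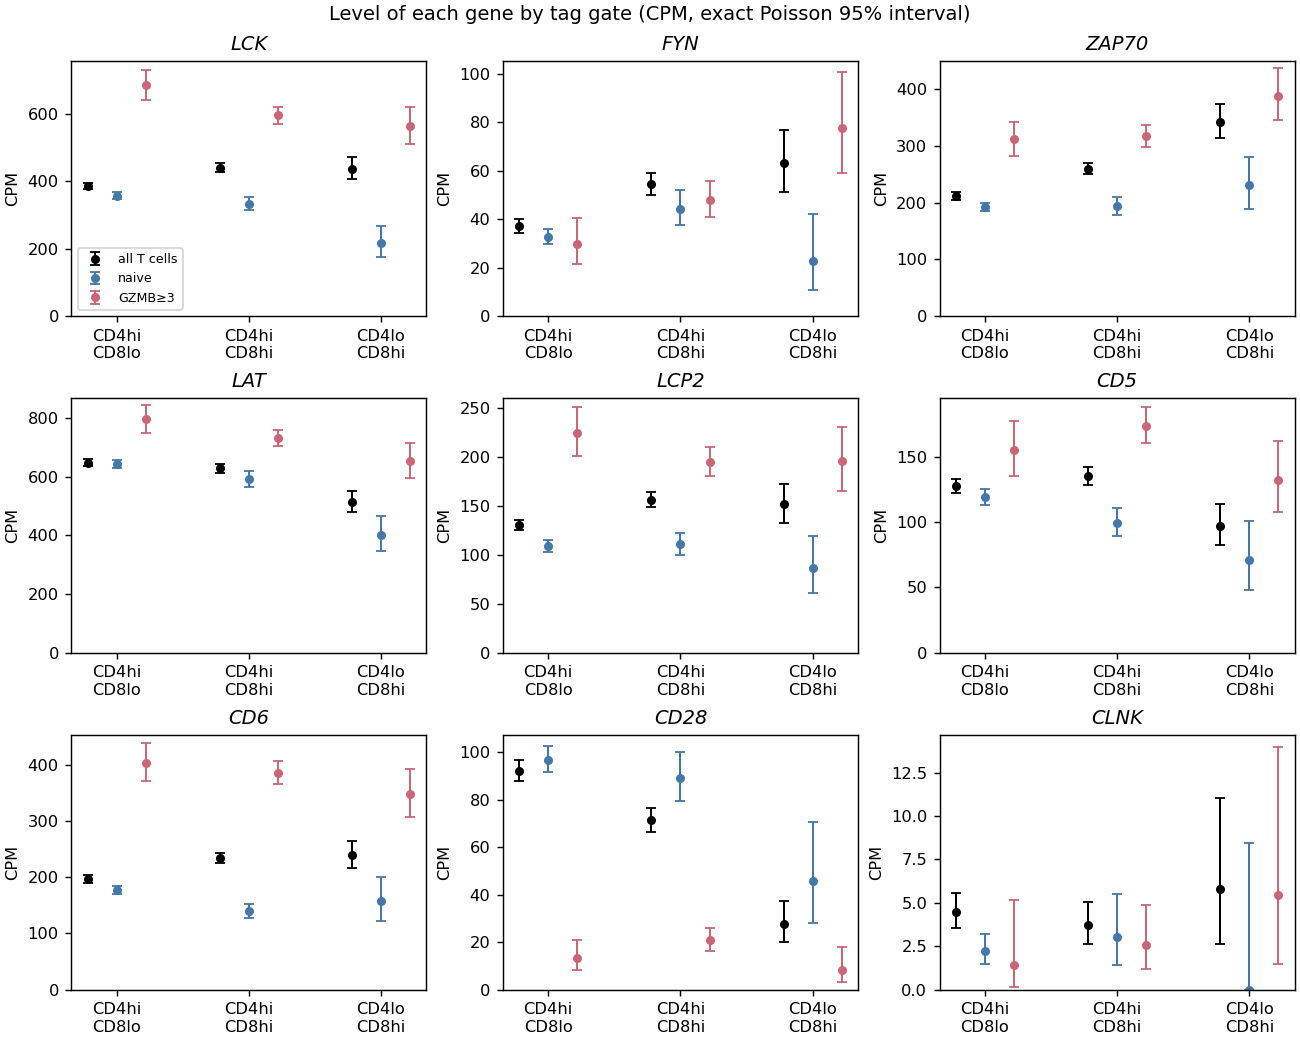
CPM of each gene (vertical axes, linear from 0, a scale of its own per gene) in 3 tag gates (horizontal axes), for all T cells, naive cells and GZMB≥3 cells, with exact Poisson 95% intervals. *LCK*, *LAT*, *CD5* and *CD28* are lower in naive CD4lo CD8hi than in naive CD4hi CD8lo cells, and *FYN* is higher in CD4lo CD8hi cells among GZMB≥3 cells but not among naive cells.

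The gates were compared at a fixed expression group in naive and GZMB≥3 cells, and levels are given for the other T cells as well. Naive CD4lo CD8hi cells (111) had less *LCK* than naive CD4hi CD8lo cells (4176), with 218 CPM (176 to 266) against 357 CPM (347 to 368). *LAT* stood at 403 CPM (346 to 467) against 643 CPM (629 to 657), *CD5* at 71.0 CPM (48.3 to 101) against 119 CPM (113 to 125) and *CD28* at 45.8 CPM (28.0 to 70.8) against 96.9 CPM (91.5 to 102). These 4 of 8 members were lower, with log2 ratios of -0.72, -0.67, -0.74 and -1.08, and 0 were higher. Of all genes 27.8% were lower and 7.16% higher, and the median log2 ratio of all genes was -0.24, so 4 of 8 is to be read against a general shift in that direction. *ZAP70* was 231 CPM (188 to 281) against 192 CPM (185 to 200), and *CD6* 158 CPM (123 to 200) against 177 CPM (169 to 184), which overlapped. Naive CD4hi CD8hi cells lay close to the CD4hi CD8lo cells in *LCK* (333 CPM) and *CD28* (89.2 CPM). They lay lower, without overlap, in *CD6* (139 CPM, 127 to 153), *CD5* (99.4 CPM, 89.0 to 111) and *LAT* (592 CPM, 566 to 619), and higher in *FYN* (44.4 CPM, 37.6 to 52.2, against 32.9 CPM, 29.8 to 36.2). The shares of all genes were not computed for this pair of gates, so these differences cannot be told apart from a general shift. *LCK* did not pass the limit with tag thresholds of 100 and 300 (-0.42) or with those from mixture models (-0.27), nor did *LAT* (-0.47) and *CD5* (-0.46) with the latter. *CD5* was also under it without the cells that had a B cell UMI (-0.52), and *CD28* was -1.67 in thinned cells.

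Among GZMB≥3 cells, 1 of 7 members was higher in CD4lo CD8hi (204 cells) than in CD4hi CD8lo cells (372) and 0 were lower, where 4.2% of all genes were higher and 5.54% lower. This was *FYN*, with 57 UMIs (77.9 CPM, 59.0 to 101) against 42 UMIs (29.8 CPM, 21.5 to 40.3) and a log2 ratio of 1.38 (0.78 to 1.99), and CD4hi CD8hi cells were between them with 47.8 CPM (40.9 to 55.6). With mixture thresholds its log2 ratio was 0.47. *CD28* was low in all 3 gates of GZMB≥3 cells, at 13.5 CPM (8.13 to 21.1), 20.8 CPM (16.3 to 26.1) and 8.2 CPM (3.01 to 17.8), the last from 6 UMIs. *CD6* was high in all 3, at 404, 387 and 348 CPM. The low *CD28* and high *CD6* levels of GZMB≥3 cells were thus present on both sides of each tag threshold.

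Among other T cells the CD4lo CD8hi gate held 48 cells and the CD4hi CD8lo gate 741. *LAT* stood at 366 CPM (288 to 458) against 640 CPM (609 to 672) and *CD28* at 52.9 CPM (26.4 to 94.7, from 11 UMIs) against 109 CPM (96.8 to 123), both lower without overlap. For this comparison too the shares of all genes were not computed. *LCK*, with 380 CPM (301 to 474) against 368 CPM (344 to 392), *CD5*, with 101 CPM (62.6 to 155) against 148 CPM (134 to 164), and *FYN*, with 62.6 CPM (33.3 to 107) against 49.3 CPM (41.0 to 58.8), overlapped. FOXP3-positive and GZMK-dominant cells had 2 and 9 cells in the CD4lo CD8hi gate, too few for a comparison.

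Over 13 strata of expression group and tag gate with at least 40 cells, the genes whose level was most like that of each member were found by Pearson's r of log2(CPM + 10), among 7768 genes. The strata come from the same libraries and differ in depth, and the values are descriptive. Nearest to *CD6* were *CMA1* (0.98), *TSPAN2* (0.97) and *CX3CR1* (0.97), and closest to *CD28* were *ENO2* (0.96), *DIP2B* (0.95) and *LTB* (0.95). Closest to *CLNK* were *IL2RA* (0.95), *BCL2L11* (0.92) and *FOXP3* (0.92), the last of which defined a group in which *CLNK* was high. No gate of FCER1G-positive cells reached 40 cells. That group, with *CLNK* at 40.3 CPM, therefore took no part in these values. *FYN* had the least close neighbours, *EXOC3* (0.89), *NIBAN1* (0.86) and *MT1F* (0.84). The nearest genes were *CDADC1* (0.97) and *CDC42SE1* (0.97) for *LCK* beside 1 gene without a symbol, *HELZ2* (0.95) for *ZAP70* beside 2 such genes, *RWDD4*, *PLEKHG3* and *SRP14* (0.94 to 0.95) for *LAT*, *INPP5F* (0.97) and *CD53* (0.96) for *LCP2*, and *PPP6C*, *NUDT18* and *EZH2* (0.92 to 0.97) for *CD5*.

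**Figure D5:**
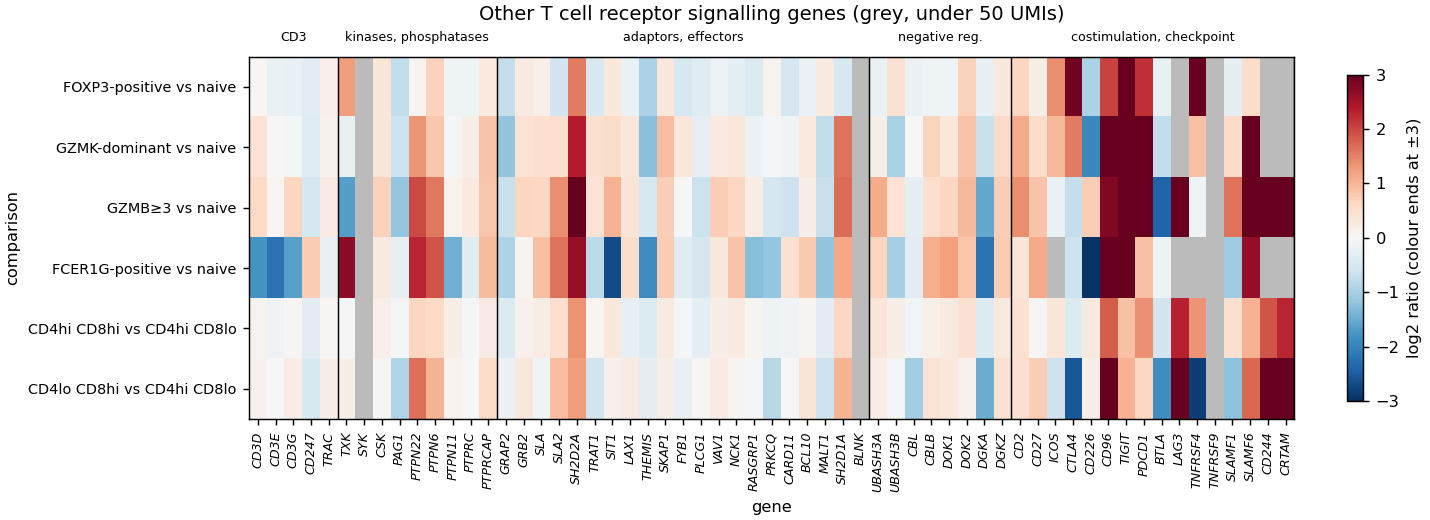
Log2 ratio of CPM (colour, ends at -3 and 3) of further genes of the pathway (columns, by role) in 6 comparisons (rows), with grey for genes under 50 UMIs over both groups. The strongest colours are in the costimulation and checkpoint receptors, such as *TIGIT* at 4.76 in FOXP3-positive cells and *PDCD1* at 4.90 in GZMK-dominant cells.

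A list of 60 further genes placed the members in their pathway. In GZMB≥3 against naive cells 31 of 57 tested were higher and 9 lower (26.3% and 14.6% of all genes), with a median log2 ratio of 0.62 against 0.17 for all genes. Among costimulation and checkpoint receptors 11 of 15 were higher, led by *CD244* (9.17, from 1 UMI in naive cells), *CRTAM* (5.22) and *LAG3* (5.09). The lowest ratios were those of *BTLA* (-2.41), an inhibitory receptor, *TXK* (-1.65), a Tec family kinase, and *DGKA* (-1.53), a diacylglycerol kinase that limits the signal. *CD28* thus differed in direction from 11 of the 15 receptors of this kind that were tested.

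In FOXP3-positive against naive cells 11 of 54 were higher and 4 lower (8.76% and 12.4% of all genes), led by the receptors *TIGIT* (4.76), *TNFRSF4* (3.65) and *CTLA4* (2.91), the last a competitor of CD28 for its ligands. *CTLA4* stood at 103 CPM against 13.7 CPM in naive cells, while *CD28* had a log2 ratio of 0.00 (-0.26 to 0.25). In GZMK-dominant cells 17 of 54 were higher and 8 lower (20.3% and 15.3% of all genes). *PDCD1* (4.90), *TIGIT* (4.83) and *CD96* (4.15) led, and *CD226* (-1.92), the activating receptor that shares ligands with the latter pair, *THEMIS* (-1.24) and *GRAP2* (-1.18), the adaptor that links LAT to SLP-76, were lowest. In FCER1G-positive cells 22 of 54 were higher and 16 lower (26.5% and 19.1% of all genes), with *TIGIT* (3.67), *CD96* (3.40) and *TXK* (2.69) at one end and *CD226* (-2.94, from 1 UMI), *SIT1* (-2.68, from 2 UMIs) and *DGKA* (-2.21) at the other. Against GZMB≥3 cells 7 of 53 were higher and 22 lower (10.9% and 23.3% of all genes), led by *TXK* (4.34) and *SIT1* (-3.72).

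Between tag gates, 14 of 57 were higher and 10 lower in CD4lo CD8hi than in CD4hi CD8lo cells (13.5% and 14.1% of all genes), with *CRTAM* (3.95), *LAG3* (3.86) and *CD244* (3.45) highest and *TNFRSF4* (-2.82), *CTLA4* (-2.54) and *BTLA* (-1.87) lowest. In CD4hi CD8hi cells 12 of 57 were higher and 0 lower (10.5% and 4.16% of all genes), led by *LAG3* (2.31). Among naive cells 1 of 53, *CD96* (4.32, 23 UMIs against 33), was higher in CD4lo CD8hi cells and 19 were lower, where 7.16% of all genes were higher and 27.8% lower around a median of -0.24. Among GZMB≥3 cells 4 of 45 were higher, with *CD96* (2.26) and *CRTAM* (1.68) first, and 4 lower, with *SLAMF1* (-2.40) and *TRAT1* (-1.12) lowest, where 4.2% of all genes were higher and 5.54% lower. *CD96* was thus higher in the CD4lo CD8hi gate at both fixed groups, but it was not particular to that gate, with 98.1 CPM in GZMK-dominant cells. Among naive cells *CD28*, *LCK*, *LAT* and *CD5* were lower there beside the general shift of all genes. Of these, *LCK*, *LAT* and *CD5* did not pass the limit with mixture thresholds.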

How the data were processed

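The members and gene lists were chosen with earlier results of these data known. Per the submitters' processing notes, Cell Ranger 3.1.0, STAR 2.5.1b and Seurat 3.1.3 were used. The authors deposited UMI counts that were not normalized, for each called barcode and each gene or tag. The filter kept barcodes with between 200 and 4000 genes and no more than 20% of UMIs from mitochondrial genes. Cells were gated in order, without clustering: B-gated (at least 3 UMIs over CD79A, CD79B and MS4A1, the control having at most 1 of CD3D, CD3E, CD3G and TRAC), monocyte-gated (at least 2 UMIs over CD14, CSF1R, VCAN, MNDA and CD163), FCER1G-positive (at least 2 UMIs), GZMK-dominant (at least 2 UMIs and more than of GZMB), GZMB≥3, FOXP3-positive (at least 1 UMI) and naive (at least 3 UMIs over 4 naive T cell genes, including CCR7, LEF1 and TCF7, and none of CCL5, NKG7, GZMA, GZMB, GZMK, PRF1, KLRB1, FOXP3, CCR4, CCR6, CXCR3 and CXCR5). GZMH was not among the symbols. Some genes are not reported here. In all, 80 T cells met more than 1 gate.

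UMIs were summed per group and expressed as CPM. Ratios have exact binomial 95% intervals, and a count of 0 was set to a floor of 3. Genes were tested where both groups together held 50 UMIs or more, and a call is a difference of at least 1.5-fold. All members were named, and of the pathway list the 3 with the highest and the 3 with the lowest log2 ratio, of which the main ones are given. Scrublet in scanpy 1.11.5 called 0 doublets, so the 6% of cells with the highest scores were removed only as an alternative. Shares after thinning leave out cells under 2200 UMIs (499 naive, 14 FOXP3-positive, 43 GZMB≥3 and 2 B control cells), and unthinned shares follow from the cell numbers given. Steps were tested on simulated data. Python 3.11.15, numpy 2.4.6 and scipy 1.17.1 were used.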

Additional observations from a re-analysis of the deposited data

Results flagged for a closer look

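At the main tag thresholds *FYN* had opposite signs in the same gate comparison at the 2 fixed expression groups. In CD4lo CD8hi against CD4hi CD8lo cells its log2 ratio was 1.38 (0.78 to 1.99) among GZMB≥3 cells and -0.52 (-1.59 to 0.37, from 10 UMIs in the former gate) among naive cells. The interval of the naive value held 0, and this value was 0.09 with tag thresholds of 100 and 300, so its sign is not settled. The difference between both groups was not tested, since there was 1 library.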

How the results depend on the processing

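In all, 21 alternatives gave 919 log2 ratios of the members, of which 0 turned the direction of a called value and 882 moved by less than their counting interval. For *CD28* in GZMB≥3 against naive cells (-2.44) the value was -2.94 as a mean over cells, -2.94 in thinned cells, -3.15 without the cells with the highest Scrublet scores and -2.12 with at least 1 GZMB UMI. The following counts of members past 1.5-fold moved by more than 1.5 times. In CD4hi CD8hi against CD4hi CD8lo cells 0 became 2 in thinned cells, 1 with tag thresholds of 200 and 600 and 1 with mixture thresholds. With mixture thresholds, 3 became 1 in CD4lo CD8hi against CD4hi CD8lo cells and 4 became 2 among naive cells. The 1 among GZMB≥3 cells became 0 with thresholds of 100 and 300, where *FYN* had under 50 UMIs and a log2 ratio of 1.62, and 0 with mixture thresholds. In GZMK-dominant against naive cells 4 became 2 with 1 UMI of the excluded genes allowed in naive cells, 2 without ribosomal protein and mitochondrial genes in the total and 2 with GZMB gated before GZMK. Smaller moves of the counts came from *FYN* in thinned cells (0.67), *CD5* as a mean over cells or without the highest Scrublet scores (0.61 in both) and *ZAP70* with the other total (0.55) in GZMB≥3 against naive cells. *LCK* in FCER1G-positive against naive cells passed the limit without the highest Scrublet scores (0.66) and without cells with a B cell UMI (0.67), and *ZAP70* against GZMB≥3 cells passed it in thinned cells (0.68) and without cells with a B cell UMI (0.61). *CD28* in GZMK-dominant against naive cells passed it in thinned cells (0.84), as a mean over cells (0.63) and with at least 4 GZMK UMIs (0.59). The alternatives on the total and on the order of GZMB and GZMK were chosen after seeing the data, as were those on CD3 and on *LYZ* or *S100A8* UMIs in FCER1G-positive cells. No paired analysis was possible because there was 1 animal and the result comes from no test. The low UMI number of *CLNK* and the 49 cells of the FCER1G-positive group limit their values.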

Other observations

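The 19 monocyte-gated cells carried 3 *CLNK* UMIs in 2 cells (22.6 CPM, 4.66 to 66.0) and 20 *LCP2* UMIs (151 CPM, 92.0 to 233). They also carried 16 *LCK* UMIs (121 CPM, 68.9 to 196) beside 46 UMIs of the T cell markers. In the 83 cells with both B cell and CD3 UMIs, whose median depth was 7599 UMIs against 3121 in T cells, *CLNK* had 4 UMIs in 4 cells.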
